A study of Mus musculus with 4 samples.

Results

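The nuclear-encoded respiratory chain genes are the 85 genes, of 27999 in the deposited count tables, whose symbols name subunits of the mitochondrial electron transport complexes and ATP synthase. They were taken by symbol: those starting with Ndufa, Ndufb, Ndufc, Ndufs or Ndufv (complex I, 38 genes), Sdha to Sdhd (complex II, 4), those starting with Uqcr (complex III, 8), Cox4 to Cox8 (complex IV, 18) and Atp5 (complex V, 17), without pseudogene entries and without the Ndufaf assembly factors. The rule uses symbols and no measured value, although it was set with earlier results of these data known. A prefix also takes in a few neighbours of the chain itself, such as Ndufab1, a mitochondrial acyl carrier protein, and Cox7a2l, a factor of supercomplex assembly, and Ndufa4 carries a complex I name although its protein is now placed in complex IV.

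The genes were measured in mouse hair follicle mesenchyme by droplet single-cell RNA-seq of the 3′ ends of transcripts, in 4 libraries. A version 2 chemistry pair held back skin cells of mice aged 2 and 18 months, and a version 3 pair held cells of mice aged 2 and 12 months, the former labelled as the second replicate of that age. All mice carried the Cre line α-SMACreERT2 with a ROSA reporter, in which the promoter of smooth muscle actin drives an inducible Cre in dermal sheath, arrector pili and vascular smooth muscle, and all received tamoxifen at postnatal days 3 and 4. Each library came from 2 mice, without a statement of how they were combined. Its cells were sorted by the reporter or Cd26 together with Itga9 or Cd200. Every group thus shares the same Cre line, tamoxifen days and gates. The reporter is YFP in the version 2 labels and TdTomato in the version 3 labels, but the eYFP entry of the count tables stood at 1163, 2935, 1624 and 1630 CPM (counts scaled to a total of 1000000) in the order 2 and 18 months (version 2), 2 and 12 months (version 3), so the reporter of the version 3 mice is uncertain. Values below follow this order of libraries. Ages are compared within a chemistry, and a difference between the chemistries cannot be told apart from a difference between the mice, the reporters or the runs.

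In the respiratory chain, complexes I and II pass electrons from NADH and succinate to ubiquinone, complex III hands them to cytochrome c, complex IV gives them to oxygen, and complex V uses the resulting proton gradient to make ATP. The genes described here are transcribed in the nucleus and their proteins are imported, whereas 13 further subunits of complexes I, III, IV and V are encoded by mitochondrial DNA and appear in the tables with the prefix mt-. Complex II is entirely nuclear. Several complex IV subunits exist as paralogs: Cox6a2, Cox7a1 and Cox8b are known from heart and skeletal muscle, Cox6b2, Cox7b2 and Cox8c from testis, Cox4i2 from lung and vessel walls, and Ndufa4l2 is a paralog of Ndufa4 known from hypoxic cells and pericytes.

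Promoters of nuclear respiratory genes are known for binding sites of the nuclear respiratory factors NRF1 and GABP (an ETS factor), of YY1 and of estrogen-related receptors. RefSeq promoter windows of 300 bases (250 before the start and 50 after it, build GRCm38.p6) were matched for 67 of the 85 genes and read on both strands beside all 27025 windows of the table. The NRF1 letters, GCGCA and GCGC parted by any base, stood in 16 of the 67 windows (23.9%) and in 4.78% of all windows. The ETS letters CCGGAAG stood in 15 (22.4% against 9.12%), the YY1 letters AAGATGGCG in 6 (8.96% against 1.49%) and the letters TCAAGGTCA of estrogen-related receptors in 2 (2.99% against 0.407%). A match is a run of letters, not a measured site. The following 30-base windows are a selection from 5 genes named below that hold the NRF1 letters, 3 of complexes I and V and 2 of complex II. Of other genes named below, Cox6a1, Atp5g3, Atp5h and Ndufa6 also held the letters. The windows of Ndufc1, Ndufa4, Uqcr11, Ndufa13, Ndufv3, Ndufc2, Ndufab1 and Ndufv1 did not, and Cox4i2 and Ndufa4l2 had no window. The 30-base windows are written 5′ to 3′ along the strand of the gene, with the NRF1 letters in capitals.
Atp5k, chr5:108434430-108434459, minus strand: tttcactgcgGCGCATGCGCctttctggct
Sdha, chr13:74350319-74350348, minus strand: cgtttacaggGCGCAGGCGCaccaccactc
Sdha, chr13:74350276-74350305, minus strand: ggggcgtgttGCGCAGGCGCagaatcttcc
Sdhd, chr9:50603909-50603938, minus strand: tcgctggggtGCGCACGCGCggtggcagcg
Ndufa5, chr6:24527697-24527726, minus strand: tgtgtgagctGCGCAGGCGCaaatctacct
Ndufa11, chr17:56717692-56717721, plus strand: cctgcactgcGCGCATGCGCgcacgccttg

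The capitals begin 50 bases before the start of Atp5k, 98 and 55 before that of Sdha, 79 before Sdhd, 190 before Ndufa5 and 60 before Ndufa11. The Sdha window thus held the NRF1 letters at 2 places. Atp5g3, which encodes a subunit of the ATP synthase membrane ring, is 1 of the 2 genes with the estrogen-related receptor letters, here on the opposite strand and therefore read as TGACCTTGA (capitals, first base 52 before the start) in the 250 bases before its start.
Atp5g3, chr2:73911327-73911576, minus strand: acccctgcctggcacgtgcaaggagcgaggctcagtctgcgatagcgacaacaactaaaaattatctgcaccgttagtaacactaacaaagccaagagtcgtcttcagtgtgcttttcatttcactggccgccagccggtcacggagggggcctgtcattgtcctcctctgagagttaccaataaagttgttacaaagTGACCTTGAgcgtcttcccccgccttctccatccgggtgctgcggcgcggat

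The 4 libraries held 17130 cell barcodes and 171343515 unique molecular identifiers (UMIs, each one captured transcript molecule), with 1906 and 2727 barcodes in version 2 and 7023 and 5474 in version 3 where the labels state 2604, 3776, 6998 and 5415 recovered cells. Of the barcodes 13460 passed the filters as cells: 1677 and 2431 in version 2, 5388 and 3964 in version 3. The median depth of these cells was 6263 and 6594 UMIs in version 2 and 11952 and 11815 in version 3. The version 2 pair shared 7 barcodes and the version 3 pair 84, of which 11 were kept in both libraries. Clusters, formed without the respiratory chain genes and without the mt- genes, were named from marker lists with the ending "-like", and the papilla, sheath, fibroblast, keratinocyte, macrophage and dendritic, pericyte, arrector pili, endothelium and cycling classes are used below. Keratinocytes and macrophages lie outside the labelled tissue, and keratinocyte-like cells numbered 258, 148, 305 and 217. The papilla-like class is mainly cluster 0 in version 2 (524 and 392 cells) and cluster 1 in version 3 (1111 and 414 cells), so it is also read cluster by cluster.

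Levels are given in CPM, the UMIs of a gene scaled to the total of all UMIs of the same cells. They are not per transcript length, because each molecule was counted once from its 3′ end, and capture can still differ between genes. Of the 85 genes, 78 had a mean of at least 10 CPM over the 4 libraries and 70 at least 100 CPM. The median of the gene means was 217 CPM in complex I, 80.9 in complex II, 389 in complex III, 348 in complex IV and 418 in complex V. Complex II therefore had the lowest median level, and 35 of 38 complex I genes passed 100 CPM against 1 of 4 complex II genes. Reads of Ndufb2 and Ndufb8 overlap on the same strand with the annotated genes Gm42420 and Gm20538, and their levels are uncertain for that reason.

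In complex I the levels were led by Ndufa4 (698, 497, 489 and 384 CPM), Ndufa13, also known as GRIM-19 (479, 515, 544 and 408), and Ndufa2 (467, 528, 419 and 353). In complex II Sdhb, the iron-sulfur subunit, stood at 139, 146, 118 and 102 CPM, Sdhc, a membrane anchor, at 111, 98.5, 73.1 and 56.2, Sdha, the flavoprotein that oxidises succinate, at 76.7, 88.2, 75.1 and 68.3, and Sdhd, the other anchor, at 62.9, 90.2, 44.9 and 49.7. In complex III the small subunits Uqcrh (784, 797, 655 and 665), Uqcrb (615, 548, 412 and 361) and Uqcr10 (507, 452, 408 and 298) led. Sdhb was thus the highest complex II gene in each library, and Sdhd the lowest except at 18 months. In complex IV Cox4i1 (1229, 1261, 1167 and 948), Cox6c (1158, 1133, 967 and 716) and Cox8a (950, 846, 837 and 658) led, and in complex V Atp5l (1172, 1124, 618 and 588), Atp5e (737, 775, 912 and 794) and Atp5h (617, 583, 565 and 494). The 12-month library was the lowest of the 4 for each of these leading and complex II genes other than Uqcrh, Atp5e and Sdhd. At the low end, Cox7a1, Atp5s and Atp5sl had means of 6.4, 6.1 and 8.0 CPM, Cox8b and Cox6a2 of 0.7 and 0.3, Cox7b2 had 5 UMIs in all kept cells, and Cox8c had none.

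Arrector pili-like cells, the small smooth muscle that raises the hair, had the highest level of the nuclear-encoded genes of any class. Their summed level was 59256 CPM at 2 months and 74616 CPM at 18 months in version 2 (65 and 17 cells) and 52331 CPM at 2 months in version 3 (456 cells); the library of 12 months held 2 such cells and is not used. These sums were 2.09, 2.82 and 2.41 times those of all other kept cells of the same library. The next class, pericyte and vascular smooth muscle-like cells, stood at 42605, 38307, 30526 and 31964 CPM (218, 251, 29 and 12 cells), or 1.51, 1.48, 1.27 and 1.57 times the other cells. The highest sum of any further class was 33360 CPM, in the cycling cells of the 2-month version 2 library. Because the classes were formed from these same cells, levels of one class against another are descriptions without a test.

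**Figure D1:**
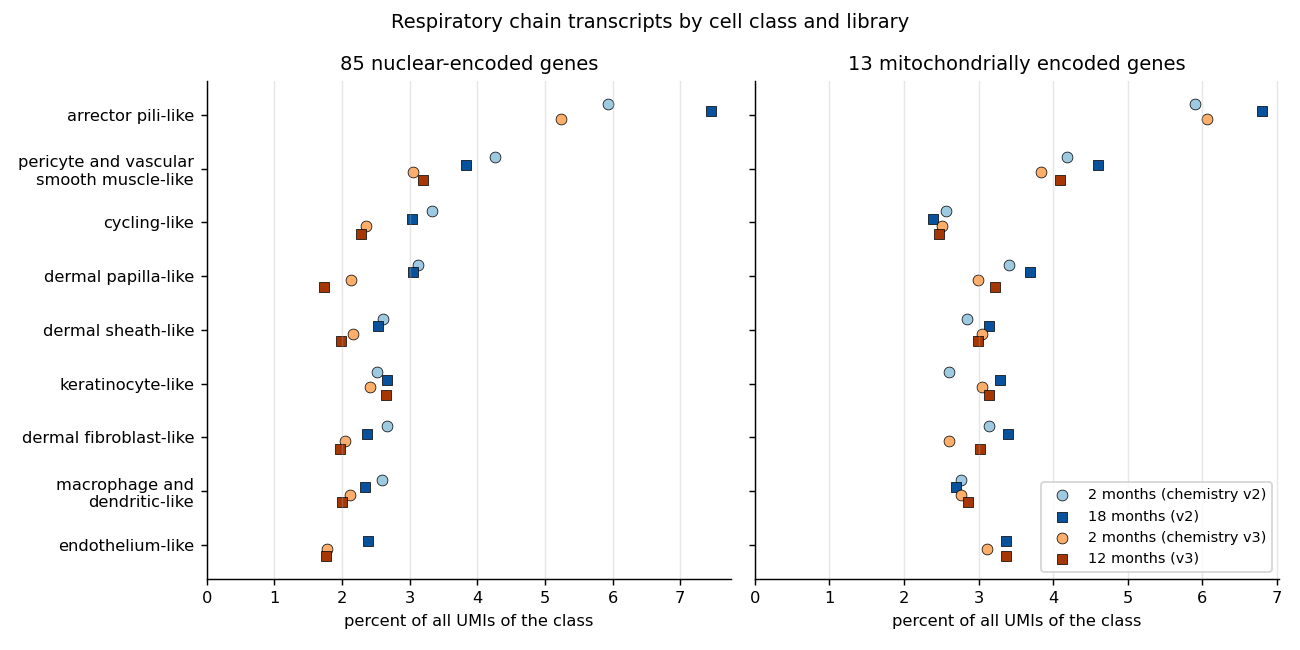
Percent of all UMIs of a class (horizontal axes) that came from the 85 nuclear-encoded respiratory chain genes (left) and the 13 mt- genes (right), by cell class (vertical axis), 1 point per library with at least 10 cells of the class. Arrector pili-like cells lie highest on both measures in each of the 3 libraries that hold them, pericyte-like cells come next, and cycling cells are lowest on the right (2.39% to 2.56%) but not on the left.

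The share of UMIs from the 13 mt- genes had the same leading classes but not the same order below them. It was 5.91%, 6.80% and 6.06% in arrector pili-like cells and 4.18%, 4.60%, 3.84% and 4.09% in pericyte-like cells. Cycling cells were lowest for the mt- genes (2.56%, 2.39%, 2.51% and 2.47%) while their nuclear-encoded sum, 33360, 30292, 23623 and 22777 CPM, was not the lowest. They had 1.30, 1.27, 0.94 and 0.92 UMIs of the nuclear-encoded genes for each mt- UMI, more than any other class in each library. Across classes, Pearson's r of the nuclear-encoded sum with the mt- share was 0.95, 0.93, 0.96 and 0.53 over 8, 9, 9 and 8 classes, and 0.78, 0.63, 0.63 and 0.53 without arrector pili-like cells. Spearman's rank correlation over all these classes was lower, at 0.64, 0.60, 0.48 and -0.07. These are descriptions over classes that share a library and its depth.

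Nearly all single genes were higher in arrector pili-like cells, with a few large exceptions. Of the 78 genes with a mean of at least 10 CPM, 75 were higher in arrector pili-like cells than in the other cells in each of the 3 libraries, where 22.2% of the 8413 genes of that level were. Of the 78, 30 were at least 2-fold higher in each library (4.62% of the 8413 genes), and the median of the genes' folds was 2.24. Cox6c, a small nuclear subunit of complex IV, was furthest out, at 5135, 8716 and 3971 CPM and 5.01, 8.0 and 5.53 times its level in the other cells. The complex I genes Ndufa11 (3.60, 4.92 and 3.93 times), Ndufa13 (3.64, 3.83 and 3.20), Ndufv3 (3.44, 4.47 and 3.01) and Ndufa5 (3.17, 3.67 and 3.33) were the others at least 3-fold higher in each library. By complex, against all kept cells, complex IV was 2.29, 3.52 and 2.51 times as high, complex I 2.13, 2.82 and 2.26 times, and complex V 1.62, 2.1 and 1.75 times, so that the excess was uneven across the chain.

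The 3 genes of the 78 that were lower in arrector pili-like cells were the paralogs Ndufa4l2, Cox4i2 and Cox6b2. Their common counterparts were high there: Ndufa4 stood at 1813, 2074 and 1402 CPM and Cox4i1 at 2481, 3390 and 2398 CPM. Cox7a1, below 10 CPM in the mean, stood at 44.4, 36.5 and 39.8 CPM, or 8.08, 5.63 and 8.15 times its level in the other cells. The other muscle paralogs did not appear with it: Cox6a2 had 0 UMIs in arrector pili-like cells of all 3 libraries and Cox8b 0, 0 and 2. The class carried its own markers at 17750, 17505 and 19509 CPM summed over 9 genes, with none of the 9 at 0, among them Des at 3812, 2759 and 5671 CPM. Of 11 skeletal muscle markers 5, 8 and 6 were at 0, and of the summed 723, 658 and 726 CPM of that list Ckm, the muscle creatine kinase, gave 664, 594 and 666.

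**Figure D2:**
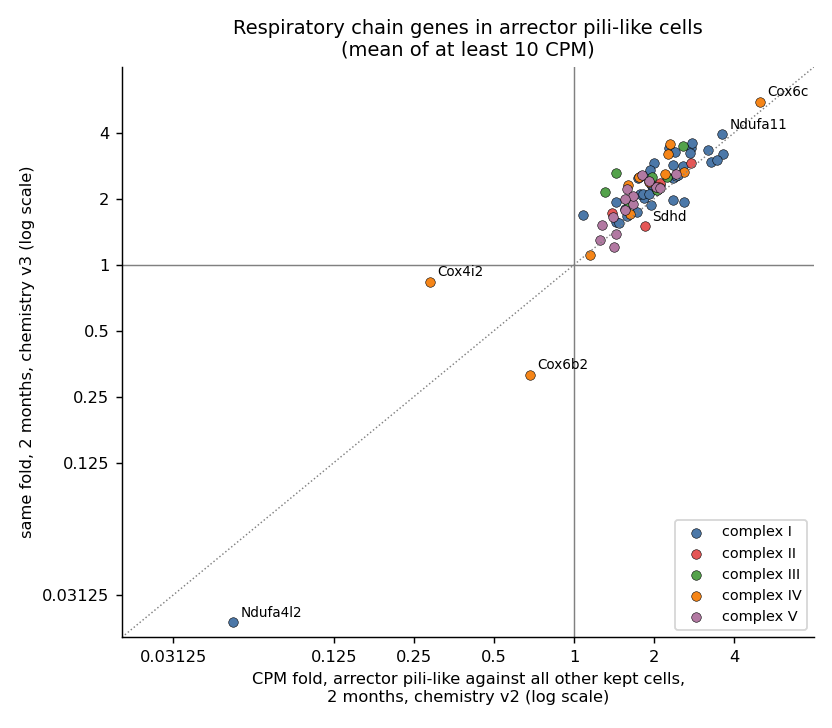
CPM fold of each nuclear-encoded gene with a mean of at least 10 CPM in arrector pili-like cells over all other kept cells at 2 months, in version 2 (horizontal, log scale) against version 3 (vertical, log scale), 1 point per gene coloured by complex, with lines at a fold of 1 and a dotted line of equal folds. Cox6c lies highest, at 5.01 and 5.53, and Cox4i2, Cox6b2 and Ndufa4l2 are the 3 points below 1 on both axes.

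In pericyte-like cells 57 of the 78 genes were higher than in the other cells in all 4 libraries (18.6% of the 8413 genes), 3 were at least 2-fold higher (3.85%), and the median fold was 1.43. Those 3 were Cox4i2 (22.0 to 141 times), Ndufa4l2 (4.74 to 12.2 times) and Cox8a (2.15 to 2.87 times), the broadly used form of its subunit. The remaining classes were close to or below the other cells. No gene was higher in fibroblast-like cells in all 4 libraries (25.3% of the 8413) and 46 were lower (22%), and in sheath-like cells 41 were lower (31.3%), in macrophage and dendritic-like cells 41 (35.7%) and in endothelium-like cells 50 (36.2%, 3 libraries). Cycling cells had 35 genes higher (27.4%) and 8 lower (24.6%). Papilla-like cells had 10 higher (41.3%) and 12 lower (21.9%), and keratinocyte-like cells 12 higher (17.6%) and 14 lower (54.6%).

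Ndufa4 and Ndufa4l2 divided between the classes in an order that held in every library at its upper end. Ndufa4l2 stood at 1679, 1331, 1265 and 1551 CPM in pericyte-like cells and made up 85.6%, 84.4%, 89.9% and 95.8% of the UMIs of the pair, with 95% intervals (Clopper-Pearson, counting error only, as for every interval here) between 82.6% and 98.6%. Ndufa4 itself was at its lowest there, at 283, 247, 142 and 68 CPM. Keratinocyte-like cells came next with 678, 626, 385 and 442 CPM of Ndufa4l2 and 47.3%, 51.7%, 34.6% and 39.4% of the pair. Within them Ndufa4l2 was highest in cluster 4 (711, 984, 479 and 624 CPM). Cluster 5 had 438, 350, 348 and 355 CPM, whereas cluster 11 had 0, 4.3, 1.9 and 0 CPM. At the lower end papilla-like cells had 2.81%, 2.18%, 2.91% and 4.98% of the pair as Ndufa4l2, and arrector pili-like cells 1.26%, 0.44% and 0.19%. Both mural and arrector muscle cells thus had high summed levels of the chain, with opposite members of this pair.

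Cox4i2 was concentrated in pericyte-like cells. In pericyte-like cells it stood at 897, 584, 690 and 1402 CPM and made up 38.3%, 28.4%, 38.0% and 56.0% of the Cox4i1 and Cox4i2 UMIs. Cycling cells had 110, 213, 23.7 and 16.8 CPM, endothelium-like cells 141, 116 and 37.4 CPM (18 months, then version 3), papilla-like cells 81.8, 56.6, 53.8 and 26.9, arrector pili-like cells 28.9, 18.3 and 19.6, and keratinocyte-like cells 0.9, 1.2, 1.7 and 0.6 CPM (6, 3, 13 and 3 UMIs). Keratinocyte-like cells, which had the second highest Ndufa4l2, therefore had the least Cox4i2. Free RNA from lysed cells can give UMIs in cells that do not express a gene. Papilla-like levels lay above keratinocyte-like levels in each library, but the classes differed in depth. Median UMIs relative to the library median were 3.23, 1.30 and 1.43 in keratinocyte-like clusters 4, 5 and 11. They were 0.83 and 0.70 in papilla-like clusters 0 and 1. The part of free RNA in these levels was not tested.

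Cox6b2 was high in papilla-like cells, though not in them alone, at 190, 152, 88.1 and 96.2 CPM and 24.9%, 21.0%, 21.3% and 27.2% of the Cox6b1 and Cox6b2 UMIs. Its fold over the other cells was 3.63, 2.18, 2.04 and 2.22, the only papilla-like value of at least 2-fold in every library among the 78 genes (5.22% of the 8413 genes). Sheath-like cells stood at 154, 124, 61.9 and 54.1 CPM, macrophage and dendritic-like cells at 131, 126, 25.2 and 45.2 CPM, and keratinocyte-like cells were low at 3.0, 11.9, 6.3 and 8.2 CPM. Within sheath-like cells, cluster 2 stood above the papilla-like class, at 236 CPM at 18 months and 122 and 120 CPM in version 3. The larger sheath-like clusters of version 3 were lower, cluster 13 at 51.6 CPM at 2 months and cluster 14 at 40.1 CPM at 12 months. Among the rare paralogs, Cox6a2 had 27 UMIs in the macrophage and dendritic-like cells of the 2-month version 3 library, where it was most frequent. Cox8b had 42 UMIs in fibroblast-like cells at 18 months (7.8 CPM), against 0, 0 and 2 in the other libraries, from clusters 17 and 18 with 23 and 18 of them.

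**Figure D3:**
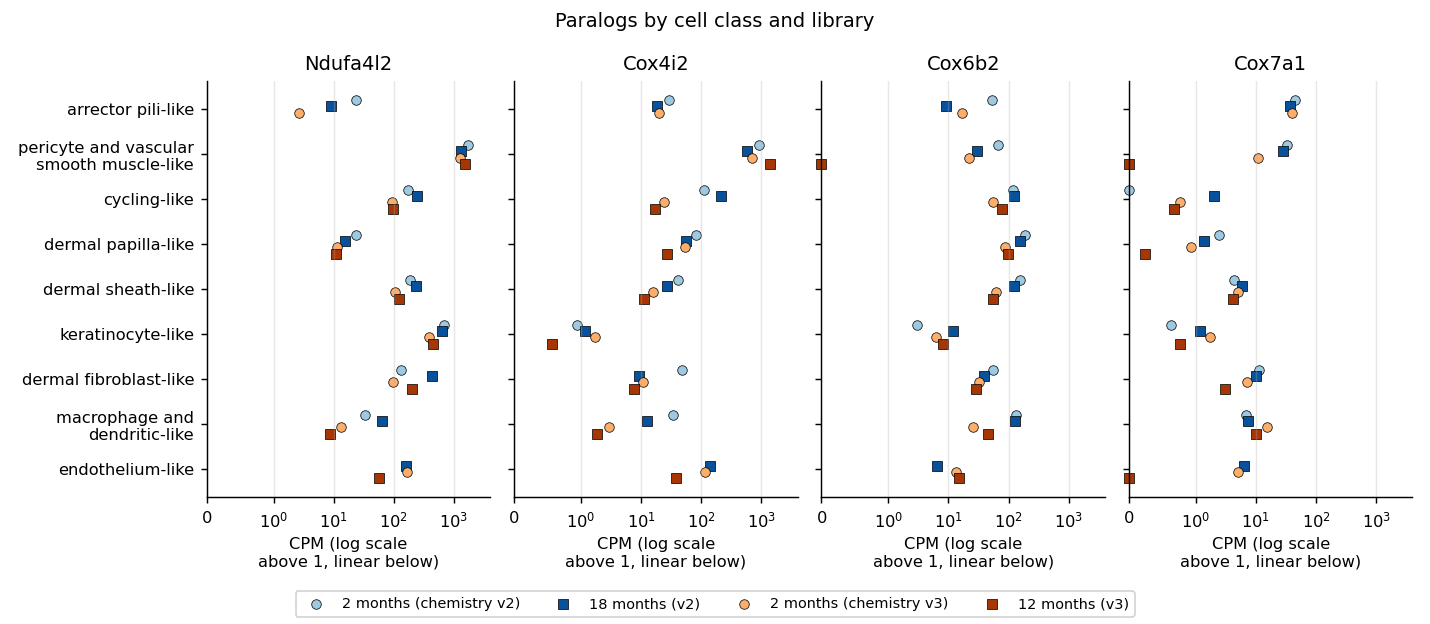
CPM of Ndufa4l2, Cox4i2, Cox6b2 and Cox7a1 (horizontal axes, log scale above 1 and linear below) by cell class (vertical axis), 1 point per library with at least 10 cells of the class. Ndufa4l2 and Cox4i2 peak in pericyte-like cells, Ndufa4l2 has a second high level in keratinocyte-like cells at 385 to 678 CPM where Cox4i2 is lowest, and Cox7a1 is highest in arrector pili-like cells.

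For age, the summed level of the nuclear-encoded genes over all kept cells was lower in the older library of each pair. It was 29308 CPM at 2 months and 26734 CPM at 18 months in version 2, a ratio of 0.912 (95% exact Poisson interval 0.909 to 0.916, counting error only). In version 3 it was 24084 CPM at 2 months and 20407 CPM at 12 months, a ratio of 0.847 (0.845 to 0.849). The mt- share went from 3.07% to 3.34% in version 2 (ratio 1.088) and from 3.21% to 3.01% in version 3 (0.937), so nuclear and mitochondrial transcripts had opposite directions in version 2 and the same in version 3. With 1 library per age and chemistry there is no test of these ratios.

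The mix of cells differed with age beside these ratios. Arrector pili-like cells of version 2 gave 3.22% of all UMIs when young, against 0.569% at 18 months. For version 3 their share was 7.64% when young, against 0.0795% at 12 months. With each class held at its 2-month share of UMIs, over 8 classes with at least 10 cells in both libraries, the ratios were 0.997 in version 2 and 0.928 in version 3, and the mt- ratios 1.14 and 1.02. In a separate sum over all cells other than arrector pili-like and pericyte-like ones, shares were not held. There the ratios were 0.949 and 0.938, with mt- ratios of 1.13 and 1.01. The version 3 mt- ratio therefore changed direction with the cell composition. At class shares the version 2 ratio of the nuclear-encoded genes came within 1% of no difference. That value takes keratinocyte-like cells at a ratio of 1.055, which was 0.881 at 2-month cluster shares. It also rests on 17 arrector pili-like cells at 18 months, and the sum was lower in 12 of 15 version 2 clusters. Sorting, tissue dissociation and age cannot be told apart as sources of the composition.

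Over genes, lower levels were frequent but mostly small. Of 81 genes with at least 200 UMIs over the pair, 10 were lower by at least 20% at 18 months (13.9% of all genes so counted) and 1, Sdhd, was higher by at least 25% (28.2%), the limits used for such counts from here on. At 12 months 22 of 81 were lower (21.5%) and 1, Ndufa4l2, was higher (9.90%). In 57 of the 81 the level was lower in both pairs, by any amount, where 28.5% of 9971 genes were. The 5 that were lower by that margin in both, a share close to the 5.82% of all genes, were Cox4i2, Ndufc1, a small membrane subunit of complex I, Cox6a1, Ndufa4 and Uqcr11. Median log2 ratios were -0.12 at 18 months, where the median of all genes was 0.10, and -0.21 at 12 months, where it was -0.10.

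The only design with 2 libraries on each side sets the libraries of 12 and 18 months against the pair of 2-month ones, accounts for chemistry in the model, and leaves 1 residual degree of freedom. In all kept cells, edgeR's quasi-likelihood test called none of the 82 genes tested at a Benjamini-Hochberg adjusted p under 0.05, nor any other gene (0% of 15462). At an unadjusted p under 0.05 it had 3 of the 82, all lower (4.35% of genes lower, 10.6% in either direction): Cox4i2 at -0.85 log2, Ndufc1 at -0.55 and Atp5k, an ATP synthase subunit that helps it dimerise, at -0.58. DESeq2 with the same design also called none of them, while it called 1.11% of 21100 genes higher and 0.754% lower. No gene of the 13 mt- genes was called in any comparison. Each side of this test has 1 library per chemistry and reporter line, so these p-values measure the spread between these libraries, which may be technical.

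Classes were tested where every library held at least 50 cells. The single call in 5 classes was Cox4i2 in papilla-like cells, with a log2 fold change of -0.73 ± 0.20 (SE) and an adjusted p of 0.0199 in edgeR's test, which called 0.908% of the 11456 genes lower. Its levels were 81.8 (2 months) and 56.6 CPM (18 months) in version 2, then 53.8 (2 months) and 26.9 CPM (12 months) in version 3, a ratio of 0.691 (interval 0.563 to 0.847) and 0.501 (0.405 to 0.615). Within a chemistry the older library was the lower, but the 18-month value lay above the 2-month value of version 3. In cluster 0, which carries the version 2 cells, Cox4i2 went from 82.3 to 61.9 CPM, and in cluster 1, which carries the version 3 cells, from 53.9 to 26.4. The call was lost with DESeq2 (adjusted p = 0.81), without the chemistry covariate (1.00), with 12 months counted as young as the study's design text has it (1.00) and with cells of under 5% mt- UMIs (0.12), with a log2 value between -0.73 and -0.56 in those fits.

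Other values differed beside this call. The summed level of 11 pericyte markers in papilla-like cells was 1689, 1668, 1431 and 1328 CPM, with 2, 2, 0 and 3 of them at 0 and Rgs5 at 4.5, 7.2, 0.17 and 0 CPM. In the same test all 16 immediate early genes, which respond to tissue dissociation among other stimuli, were called higher in the older papilla-like cells, with a median log2 value of 1.47 (8 of them with DESeq2, and 0 without the chemistry covariate or with 12 months counted as young). The summed level of the 19 papilla markers was 17274, 16254, 15268 and 10650 CPM. The part of these in the Cox4i2 result was not tested.

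The neighbours of Cox4i2 in papilla-like cells pointed the same way without passing the threshold. At an unadjusted p under 0.05 stood 10 of the 80 genes tested, all of them lower (4.78% of 11456 genes lower, 12% in either direction). Ndufc1 stood at 355 and 281 CPM in version 2 and 235 and 127 CPM in version 3 (log2 value -0.58, SE 0.18, edgeR adjusted p = 0.051), and Atp5k, named after its values were seen, at 593 and 531 CPM and 354 and 164 CPM (log2 value -0.60, SE 0.19, edgeR adjusted p = 0.055). In both genes the older library of each pair was the lower, and both version 3 libraries lay below both version 2 libraries. Among the other 7 with an unadjusted p under 0.05 were Ndufa4 (-0.49, edgeR adjusted p = 0.16) and Uqcr11 (-0.43, adjusted p = 0.27).

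In the sum over the chain, papilla-like cells differed between the 2 pairs. They stood at 31309 CPM at 2 months and 30548 at 18 months (ratio 0.976, interval 0.967 to 0.985), and at 21385 CPM at 2 months and 17290 at 12 months (0.809, 0.802 to 0.815). The version 2 ratio was 1.02 within cluster 0 alone, so its direction depended on which papilla clusters were counted. The version 3 ratio was 0.806 within cluster 1. Of 77 genes counted, 35 were lower by that margin at 12 months (23% of all genes) and 0 higher (12.6%), against 2 lower (9.76%) and 6 higher (13.5%) at 18 months. Cox4i2 and Ndufc1 were lower by that margin in both pairs (3.71% of 4044 genes). By complex the version 3 ratio was lowest in complex I at 0.756. The largest differences in version 3 were in Atp5k (0.463), Cox4i2 (0.501), Ndufc1 (0.541) and Uqcr11 (0.542), while Uqcrh, the hinge subunit of complex III, had a log2 ratio of 0.19. At the same time the mt- share was higher in the older library of both pairs, with ratios of 1.08 and 1.08.

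Atp5k was lower in the older library beyond papilla-like cells. Over all kept cells it stood at 548, 451, 434 and 238 CPM, and in sheath-like cells at 490, 418, 407 and 232 CPM (log2 value -0.51, SE 0.14, edgeR adjusted p = 0.12). Its ratio was below 1 in 12 of 15 clusters of version 2 and in 15 of 16 clusters of version 3, where it ranged from 0.463 to 1.22. The summed level of the chain was lower in 12 of the 15 clusters (ratio 0.790 to 1.27) and in 10 of the 16 (0.806 to 1.39). The ratio of Atp5k was thus below 1 in more version 3 clusters than that of the sum; clusters of a library share its cells and depth, and no test was made.

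In fibroblast-like cells the sum stood at 26591, 23681, 20392 and 19652 CPM, ratios of 0.891 (0.881 to 0.900) and 0.964 (0.956 to 0.971). Under TMM scaling, which removes a general shift of most genes between libraries, the version 3 ratio was 1.03, so its direction was not stable to scaling. Of 76 genes counted at 18 months, 17 were lower by that margin (18.7% of genes) and 1 was higher (18.7%). Of 77 at 12 months, 4 were lower (15.5%) and 2 higher (12.7%). None of the 81 genes tested with edgeR passed an adjusted p of 0.05 (0.0599% of genes called higher and 0.0514% lower), and 2 had an unadjusted p under 0.05 (10.2% of genes).

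One of these was Ndufa4l2, which went against the rest of the chain. It stood at 133 CPM at 2 months and 425 CPM at 18 months, a ratio of 3.20 (2.79 to 3.69), and at 97.5 CPM at 2 months and 199 CPM at 12 months, a ratio of 2.04 (1.84 to 2.27). Its log2 value was 1.42 (SE 0.21, edgeR adjusted p = 0.096), and it was the only fibroblast-like gene of the chain at least 25% higher in both pairs (6.99% of 4151 genes). It passed the threshold with DESeq2 (adjusted p = 5.98e-05), without the filter on low counts (0.0024) and in cells under 5% mt- UMIs (0.040). Cluster 17 had the highest level, 542 and 932 CPM in version 2 and 457 and 329 CPM in version 3, and went from 26 to 218 cells and from 47 to 324 cells. In version 3, then, the level within cluster 17 was lower at 12 months while the class as a whole was higher. In cluster 18 it went from 56.9 to 259 CPM in version 2, and it stood at 86.7 CPM at 12 months, where the 2-month library had 8 cells of that cluster. Levels in clusters 10 and 12 went from 44 to 53 and from 111 to 165 CPM in version 2, and from 19 to 54 and from 77 to 106 CPM in version 3. The 11 pericyte markers summed to 785, 636, 699 and 597 CPM in fibroblast-like cells, and the 17 keratinocyte markers to 1095, 370, 398 and 237 CPM, both lower in the older libraries. The 7 melanocyte markers went from 3638 to 56.9 CPM in version 2 and from 786 to 67.7 CPM in version 3, with 2 of them at 0 in each older library. The 17 macrophage and dendritic markers went from 706 to 677 CPM and from 4398 to 295 CPM, with 1 at 0 in each 2-month library. The part of these in the Ndufa4l2 values was not tested.

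The other gene with an unadjusted p under 0.05 in fibroblast-like cells was Cox4i2, with 47.2, 9.3, 10.9 and 7.5 CPM (79, 50, 51 and 66 UMIs) and a log2 value of -1.38 (SE 0.45, edgeR adjusted p = 0.37). The 2-month version 2 library stood apart from the other 3 here.

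Sheath-like cells, the contractile sleeve around the follicle, had sums of 25999, 25343, 21643 and 19800 CPM, with ratios of 0.975 (0.964 to 0.986) and 0.915 (0.911 to 0.918). Different clusters held most of them at each age in version 3: cluster 13 had 1830 cells at 2 months and 17 at 12 months, and cluster 14 had 20 and 1356. The sex-linked genes Xist and Tsix were among the highest leading genes of cluster 13 but not of cluster 14. Their part in the split and in the ratios was not tested. With clusters held at their 2-month shares the version 3 ratio was 0.882, and in that pair cluster 13 stood lower at 12 months (2.19% and 1.93% of UMIs) and cluster 14 higher (1.88% and 2.02%). At 18 months 0 of 76 genes were lower by that margin (7.85% of genes) and 2 higher (11.2%), and at 12 months 7 of 81 lower (10.3%) and 1 higher (8.86%). No gene passed these limits in the same direction in both pairs (3.37% of 3177 genes higher, 1.64% lower). With edgeR none of 81 was called (1.05% of genes called higher, 0.366% lower). The 5 with an unadjusted p under 0.05 (10.4% of genes) were Atp5k, Cox4i2 (-0.49), Ndufa3 (-0.34), Ndufc1 (-0.27) and, in the other direction, Ndufa4l2 (0.28).

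Keratinocyte-like cells were the only tested class with a higher sum in the older library of both pairs: 25201 and 26584 CPM in version 2 (ratio 1.055, 1.045 to 1.064) and 24121 and 26524 CPM in version 3 (1.100, 1.092 to 1.107). The version 2 ratio was 0.717 with TMM scaling and 0.881 with the keratinocyte clusters held at their 2-month shares, so its direction followed both choices; the version 3 ratio was 1.06 at 2-month cluster shares. Cluster 4, the largest, had 215 and 61 cells in version 2 and 157 and 95 cells in version 3, and the smaller clusters 5 and 11 had higher levels of the chain. Of the 76 genes counted, 18 were at least 25% higher at 18 months (38.6% of genes) and 3 lower (18.4%), and 12 higher at 12 months (15.4%) and 2 lower (18.2%). The 9 cycling markers summed to 304 and 1019 CPM in these cells in version 2 and to 891 and 1161 CPM in version 3, with each of the 9 higher in the older library of both pairs and none at 0. Their part in the sum was not tested. Median depth per cell went from 25745 to 13183 UMIs in version 2 and from 18896 to 19691 in version 3.

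The 8 genes higher by at least 25% in both pairs in keratinocyte-like cells (7.95% of 3709 genes) were Ndufs1, Ndufv1, Ndufc2 and Ndufab1 of complex I, Sdha and Sdhd of complex II, Uqcrc2 of complex III and Atp5g3 of complex V. Ndufs1 and Ndufv1 are core subunits that carry electrons from NADH, and Uqcrc2 is a core protein of complex III. Sdhd stood at 17.9 and 51.6 CPM in version 2 (ratio 2.88, 2.23 to 3.74) and at 23.2 and 42.2 CPM in version 3 (1.82, 1.49 to 2.24). Sdha stood at 41.2 and 65.4 CPM (1.59) and at 48.1 and 73.7 CPM (1.53), and Atp5g3 at 170 and 250 CPM (1.48) and 181 and 242 CPM (1.34). Complex II as a sum had the highest ratios of the complexes in these cells, 1.72 and 1.29. By cluster, Sdhd went from 11.5 to 22.2 and from 11.9 to 14.1 CPM in cluster 4, from 77.4 to 71.7 and from 38.3 to 71.8 in cluster 5, and from 116 to 107 and from 53.8 to 86.0 in cluster 11, so that the direction in version 2 differed between the clusters. With edgeR none of the 79 genes tested was called (0% of genes called higher, 0.00901% lower). Sdhd alone had an unadjusted p under 0.05 (6.95% of genes), with a log2 value of 0.95 (SE 0.28, edgeR adjusted p = 0.71).

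Macrophage and dendritic-like cells had sums of 25967, 23456, 21217 and 20030 CPM and ratios of 0.903 (0.891 to 0.916) and 0.944 (0.937 to 0.952), but with TMM scaling these were 1.11 and 1.17, so no direction is given. By CPM 14 of 74 genes were lower by at least 20% at 18 months (29.2% of genes) and 1 higher (14.8%), and 18 of 76 lower at 12 months (42.9%) and 3 higher (12.2%). Ndufs3, Ndufs8, Ndufc1 and Sdha were lower by at least 20% in both pairs by CPM (11.9% of 2254 genes). EdgeR, which scales by TMM, called none of the 81 genes tested (1.31% of genes called higher, 0.277% lower), and the 4 with an unadjusted p under 0.05 (8.50% of genes higher, 12.7% in either direction) were all higher: Cox7a2l (0.71), Cox6b2 (0.70), Uqcrfs1 (0.68), the Rieske iron-sulfur protein, and Ndufa6 (0.53). Pericyte-like cells could be paired in version 2 only, with a ratio of 0.899 (0.888 to 0.910), 11 of 76 genes lower by at least 20% (12.9% of genes) and 0 higher (9.96%). Cycling cells could be paired in version 3 only, with a ratio of 0.964 (0.949 to 0.979) that was 1.01 with TMM scaling, 7 of 71 genes lower by that margin (11.3%) and 4 higher (10.9%).

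**Figure D4:**
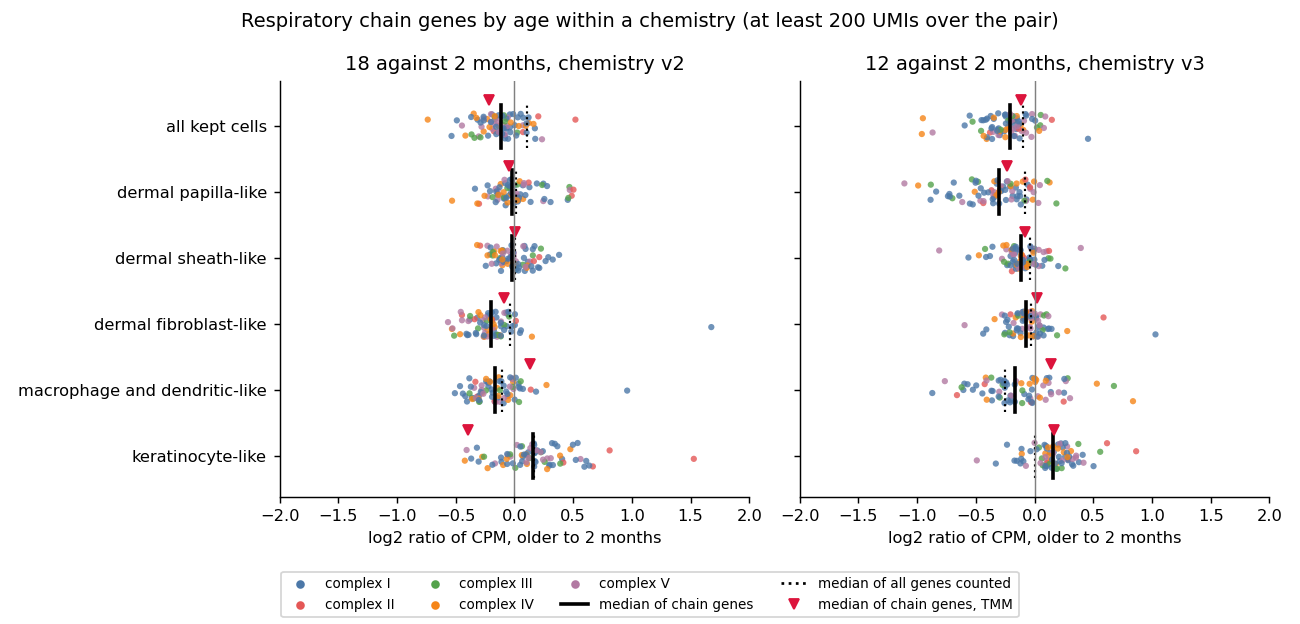
Log2 ratio of CPM in the older to the 2-month library (horizontal axes) for each nuclear-encoded gene with at least 200 UMIs over the pair, by class (vertical axis), in version 2 (left) and version 3 (right), points coloured by complex, with the median of the genes (solid line), of all genes counted (dotted line) and of the genes after TMM scaling (triangle). The medians lie below 0 except in keratinocyte-like cells, where both are 0.16, and the triangle crosses 0 in macrophage and dendritic-like cells of both pairs, keratinocyte-like and sheath-like cells of version 2 and fibroblast-like cells of version 3.

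Set beside the nuclear-encoded genes, the mt- share had a ratio above 1 in version 2 in fibroblast-like (1.08), papilla-like (1.08), sheath-like (1.11), keratinocyte-like (1.26) and pericyte-like cells (1.10) and below 1 in macrophage and dendritic-like cells (0.978). In version 3 the ratios were 1.16, 1.08, 0.983, 1.03 and 1.04 in fibroblast-like, papilla-like, sheath-like, keratinocyte-like and macrophage and dendritic-like cells and 0.984 in cycling cells. In fibroblast-like and papilla-like cells, then, the nuclear-encoded sum had a ratio below 1 and the mt- share a ratio above 1 in both pairs, with the reservations on scaling and clusters given above. The mt- share of a cell is also the measure by which damaged cells were removed, at 10%. At or above this limit stood 9.29% and 7.99% of all barcodes in version 2 and 19.2% and 23.8% in version 3. Removal took 177, 218, 1133 and 895 barcodes that had passed the gene and UMI minimum.

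Across cells the 2 measures did not simply rise together. Over all cells with at least 500 genes and 1000 UMIs, before the mt- limit and the removal of doublets, the nuclear-encoded genes made up 2.81%, 2.92%, 3.50% and 3.81% of the non-mt- UMIs in cells with under 2%, 2 to 4%, 4 to 6% and 6 to 10% mt- UMIs in the 2-month version 2 library. Above that limit they made up 2.14% in cells with 10 to 20% and 1.02% in cells with at least 20% mt- UMIs. The same course was seen in the 2-month version 3 library, with 2.15%, 2.27%, 3.38%, 4.10%, 1.3% and 0.77%. At 18 months the values were 2.62%, 2.72%, 3.03%, 2.83%, 1.78% and 0.80%, and at 12 months 2.06%, 2.07%, 2.20%, 2.63%, 0.86% and 0.54%. Each library thus had its lowest values above the 10% limit, and over all their cells the 2-month libraries had the steepest climb below it. Within the sheath-like cells at 12 months the values were 1.89%, 2.05%, 2.11%, 1.90%, 0.80% and 0.54%. At 6 to 10% in the 2-month version 3 library, sheath-like cells had 1.70% and papilla-like cells 1.71%. Macrophage and dendritic-like cells had 1.85% there, and keratinocyte-like cells 1.94% there but 4.75% at 12 months. Arrector pili-like cells, with 5.91% and 6.06% mt- UMIs at 2 months, numbered 65 and 456 there and 17 and 2 in the older libraries. Their part in the climb was not tested. Median depth differed between these groups too. In the 2-month version 3 library it was 11026 UMIs under 2%, 13320 at 2 to 4% and 2247 at 20% and over. In the 2-month version 2 library it was 5352, 5824.5 and 6148.5 UMIs at 4 to 6%, 6 to 10% and 10 to 20%, and 4678 above. The part of depth in these shares was not tested.

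**Figure D5:**
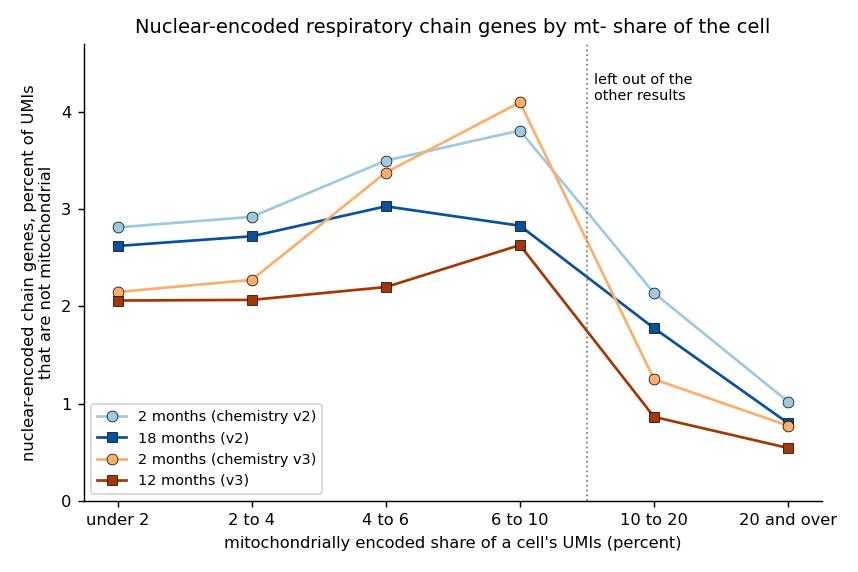
Nuclear-encoded respiratory chain UMIs as a percent of non-mt- UMIs (vertical axis) in cells grouped by their percent of mt- UMIs (horizontal axis), 1 line per library, with the dotted line at the limit of 10% used for the other results. All 4 lines drop above that limit, to between 0.54% and 1.02% in the last group.

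Genes around the chain gave few calls in the same tests. In all kept cells no gene of any list was called. In macrophage and dendritic-like cells 4 of 19 glycolysis genes rose: the glucose transporter Slc2a1 by 1.56 on the log2 scale (edgeR adjusted p = 0.030), Aldoc by 1.82 (0.033), the lactate exporter Slc16a3 by 1.35 (0.038) and Pfkp by 1.27 (0.031). Of 8 hypoxia response genes 2 rose there, Ndrg1 by 1.35 (0.030) and Vegfa by 1.37 (0.033). These 6 calls depended on the processing: with cells of under 5% mt- UMIs, without an mt- limit, without mt- genes, at Leiden resolution 1, without the chemistry covariate and with 12 months counted as young none of the 6 was called, at log2 values between 1.14 and 1.84, and with DESeq2 Pfkp and Ndrg1 alone were called. The class joins cluster 3, with dendritic cell markers (90 and 299 cells in version 2, 113 and 313 in version 3), and cluster 19, with macrophage markers (17 and 72, then 569 and 437), and the 19 papilla markers summed to 3510, 1517, 662 and 318 CPM in it, with none at 0. The part of these in the calls was not tested. In the same class 1 of 16 immediate early genes was called, and the cytoplasmic ribosome list, none of which was called, had a median log2 value of 0.52. In papilla-like cells the hypoxia response gene Adm rose by 0.95 (0.038, 1 of 7 tested), a call held in 7 of 12 other settings (log2 values 0.38 to 0.99), and in sheath-like cells 12 of 16 immediate early genes were called higher (median log2 value 1.17), as was Mrps6, 1 of 76 genes of the mitochondrial ribosome (0.80, edgeR adjusted p = 0.014, held in 9 of 12). In none of the 6 comparisons was any gene called from the lists of complex I assembly factors (13 tested), assembly factors of complexes II to V (32 or 33), the citric acid cycle (15), electron carriers and their synthesis (13), or the regulators of mitochondrial gene expression, which include Ppargc1a, Nrf1, Gabpa and Tfam (11 to 14).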

How the data were processed

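The authors deposited filtered 10x matrices of UMI counts per gene and cell barcode, whole and not normalized, 1 per library. Per the submitters' processing notes, STAR, Cell Ranger 2.0.1 and Seurat 2.1.0 and the builds mm10 and GRCm38.p5 were used; the version 3 file headers name software version 3.0.1.

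Cells needed at least 500 genes, 1000 UMIs and under 10% mt- UMIs, and the 3% with the highest Scrublet scores per library were removed as doublets. Clustering used 2000 variable genes scaled within each library, without the respiratory chain, mt-, ribosomal, heat shock, immediate early and sex-linked genes, 30 components, 15 neighbours and Leiden resolution 0.5 (scanpy 1.11.5, Python 3.11.15), which gave 21 clusters. A cluster took a class name from at least 3 markers among its 100 leading genes.

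UMIs were summed per library and class. EdgeR 4.0.16 (R 4.3.3) fitted chemistry and age over all genes passing its default filter, with TMM scaling, its default, and Benjamini-Hochberg adjustment over all genes tested; DESeq2 1.42.0 was an alternative. The script was tested on simulated counts. Within a chemistry there is 1 library per age, so ratios carry an exact Poisson interval (95%) for counting error only, and folds use a prior count of 0.5. Named genes were those called, those higher by at least 25% or lower by at least 20% in the same direction in both pairs, the 3 highest of each complex, all of complex II, all paralog sets, those at least 3-fold higher in a class in every library, and called genes of the other lists. The members and lists were chosen with earlier results of these data known. Alternatives changed the scaling, test, filters, cell limits, doublet removal, age coding, clustering resolution and fold.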

Additional observations from a re-analysis of the deposited data

Results flagged for a closer look

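The summed CPM of the nuclear-encoded genes in keratinocyte-like cells was higher in the older library of both pairs (ratios 1.05 and 1.10), whereas in fibroblast-like (0.891 and 0.964), papilla-like (0.976 and 0.809), sheath-like (0.975 and 0.915) and macrophage and dendritic-like cells (0.903 and 0.944) it was lower in both. The difference between the classes was not tested. The ratio crosses 1 with TMM scaling in keratinocyte-like cells of version 2 (0.717), in fibroblast-like cells of version 3 (1.03) and in macrophage and dendritic-like cells of both pairs (1.11 and 1.17), and with clusters held at their 2-month shares in keratinocyte-like (0.881) and papilla-like cells (1.02) of version 2.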

How the results depend on the processing

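No paired analysis was possible by replicate number, because the compared ages share only number 1. The pairing lay in the chemistry, which holds 1 library of 2 months and 1 older one in each version and was a term of the reported fit; the fit without it is given here as without the chemistry covariate. Without shared barcodes, 2-month class shares, 2-month cluster shares and the sums without arrector pili-like and pericyte-like cells were chosen after seeing the data. The count of genes called lower in papilla-like cells, 1 as reported, was 0 with DESeq2, without the chemistry covariate, with 12 months counted as young and with an mt- limit of 5%, 2 without the filter on low counts, and 3 with relative log expression size factors, without mt- genes, without an mt- limit, with at least 1000 genes, without doublet removal, without shared barcodes and at Leiden resolution 1. One gene was called higher in fibroblast-like cells with DESeq2, without the filter and with the limit of 5%, and 1 lower in sheath-like cells without the filter, without an mt- limit and without doublet removal. Leaving out 1 library in turn, which allows no test, the median log2 value of the genes ranged from -0.22 to -0.12 in all kept cells, from -0.088 to 0.022 in fibroblast-like, from -0.23 to -0.046 in papilla-like, from -0.081 to 0.0017 in sheath-like, from -0.40 to 0.16 in keratinocyte-like and from 0.13 to 0.14 in macrophage and dendritic-like cells.

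In all kept cells the version 2 ratio of the sum (0.912) was 0.916 without an mt- limit, 0.930 with the limit of 5%, 0.850 with TMM, 0.997 at 2-month class shares and 0.949 without arrector pili-like and pericyte-like cells. Its mt- ratio was 1.01 without the limit, 1.08 without doublet removal, 1.14 and 1.13 in the last 2 of these settings. The version 3 ratio (0.847) was 0.900 with the limit of 5%, 0.841 without doublet removal, 0.906 with TMM, 0.928 at class shares and 0.938 without the 2 classes, and its mt- ratio (0.937) was 0.957 without the limit, 0.992 with 5%, 0.934 without doublet removal, and 1.02 and 1.01 in the last 2. Ratios that crossed 1 with TMM were those of cycling (1.01), fibroblast-like (1.03) and macrophage and dendritic-like cells (1.17) in version 3 and of keratinocyte-like (0.717) and macrophage and dendritic-like cells (1.11) in version 2, and at cluster shares those of papilla-like (1.02) and keratinocyte-like cells (0.881) in version 2. The version 3 mt- ratio crossed 1 without an mt- limit in cycling (1.03), sheath-like (1.05), keratinocyte-like (0.944) and macrophage and dendritic-like cells (0.914), and with the limit of 5% in keratinocyte-like cells (0.973). Genes lower by at least 20% in all kept cells (10 and 22 as reported) were 21 with TMM and 1 at 1.5-fold in version 2, and 9 with the limit of 5%, 10 with TMM and 4 at 1.5-fold in version 3; at 1.5-fold higher there were 0 in either pair. With 12 months counted as young the log2 values of Ndufs1 (-0.11), Ndufv1 (-0.015) and Uqcrc2 (-0.12) in keratinocyte-like cells and Sdha (0.021) in macrophage and dendritic-like cells changed sign. The causes were not tested. Paralog shares moved by less than their counting intervals in all 48 recomputed values. Values from the 12 pericyte-like cells at 12 months and the 17 arrector pili-like cells at 18 months rest on few cells.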
